A study of Homo sapiens with 8 samples.

Results

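Genes for adhesion and guidance molecules of axons and synapses were examined for trimethylation of lysine 9 of histone H3 (H3K9me3) at their promoters. They were matched by patterns of symbols, and the list was drawn up with earlier results of these data known. It held contactins, contactin-associated proteins, neurexins, neuroligins, LRRTM and SLITRK proteins, CSMD proteins, NCAMs, ROBO receptors and SLIT ligands, and latrophilins. It also held the scaffolds DLG1 to DLG4, the IgLON proteins OPCML, NTM, LSAMP and NEGR1, DSCAM, DSCAML1, IGSF9B, and the receptor-type phosphatases PTPRD, PTPRT and PTPRN2. These patterns matched 177 of the 38157 promoter windows and 49 genes, and 174 windows of 48 genes held enough reads to be tested. DSCAM, SLIT1, SLITRK5 and LRRTM1 to LRRTM3 were not among the matched rows. The 3 untested windows were both windows of CNTNAP3, without a read in any library, and an internal window of LPHN3. The cells were SiHa, a single established line from a squamous carcinoma of the cervix, left for 10 h in a transwell, where cells can cross a porous membrane. Cells that had crossed (migrated) and cells that had not (non-migrated) were collected, and each fraction gave an H3K9me3 immunoprecipitate (ChIP) and an input of sonicated chromatin, in 2 paired sets (n = 2 per group, 8 libraries). The labels describe no genetic change or drug in any of the 4 groups.

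H3K9me3 is a mark of silent heterochromatin, laid down by methyltransferases such as SUV39H1 and bound by HP1 proteins. In neurons the molecules studied here join axon to target: presynaptic neurexins, latrophilins and receptor phosphatases reach across the cleft to neuroligins, LRRTM and SLITRK proteins, and DLG scaffolds gather the partners beneath the membrane. SLIT ligands steer axons and other migrating cells through ROBO receptors. Many of these genes are very long, lie in gene-poor DNA and have several start sites. A window spanned 2100 bases in most cases, 2000 upstream and 100 downstream of a start, and it carries the name of a gene that it overlaps. A window named for a gene may therefore belong to an internal or antisense start.

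The upstream promoter sequences of 3 genes are printed here as examples from both ends of the range of H3K9me3. CNTN4 and SLIT2 had own-strand starts among the highest in H3K9me3, and DLG4 had one among the lowest. Other starts at either end held fewer CG, as given below. The sequences are the 250 bases before the most upstream RefSeq start (GRCh38.p14), 5′ to 3′ on the gene's strand, with each CG dinucleotide in capitals. The CNTN4 stretch (chr3:2098616-2098865, plus strand) holds 40 CG, that of SLIT2 (chr4:20251655-20251904, plus strand) holds 30 and that of DLG4 (chr17:7220051-7220300, minus strand) holds 22, against a median of 17 over 12755 promoters of the same length.
CNTN4: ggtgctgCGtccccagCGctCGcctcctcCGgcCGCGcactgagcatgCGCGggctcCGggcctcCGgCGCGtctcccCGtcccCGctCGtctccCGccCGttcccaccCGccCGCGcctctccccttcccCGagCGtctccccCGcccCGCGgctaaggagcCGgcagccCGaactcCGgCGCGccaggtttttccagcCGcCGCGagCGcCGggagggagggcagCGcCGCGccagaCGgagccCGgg
SLIT2: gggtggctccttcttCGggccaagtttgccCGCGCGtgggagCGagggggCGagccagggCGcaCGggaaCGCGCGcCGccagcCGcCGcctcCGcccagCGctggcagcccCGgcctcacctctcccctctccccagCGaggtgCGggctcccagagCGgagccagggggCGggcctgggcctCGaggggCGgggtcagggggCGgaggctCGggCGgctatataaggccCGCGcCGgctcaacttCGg
DLG4: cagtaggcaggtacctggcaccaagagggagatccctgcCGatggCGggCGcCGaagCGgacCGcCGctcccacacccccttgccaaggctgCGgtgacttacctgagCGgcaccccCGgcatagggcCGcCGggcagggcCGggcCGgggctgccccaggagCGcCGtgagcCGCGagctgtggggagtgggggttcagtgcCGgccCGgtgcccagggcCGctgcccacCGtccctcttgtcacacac

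Over all promoter windows the libraries held 88028 to 684949 reads in set 1 and 984835 to 1729061 reads in set 2. The shallowest was H3K9me3 of migrated cells in set 1, with a median of 1 read per window, and 30.5% of its windows had none. The members had a median of 4 reads there, and 13 had none. As checks of the mark, all 10 windows of a chromosome 19 zinc finger list were enriched (median log2 2.27), and 5 of 6 windows of housekeeping genes were lower (median -1.90). Values below are log2 ratios of H3K9me3 to input after library sizes were scaled by trimmed means, averaged over fractions and sets unless stated, with SE, and a window was called at an adjusted p of 0.05 (limma, Benjamini-Hochberg over all 36440 tested windows). On this scale 0 is a scaling centre and not the absence of the mark; "enriched" means called above it and "lower" called below it.

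Windows of synaptic and axonal adhesion genes carried more H3K9me3 than most promoters of the same cells. Of the 174, 80 (46.0%) were called enriched, where 15.8% of all windows were, and 18 (10.3%) were called lower, where 35.2% of all windows were. The median member lay at log2 0.74 and the median window at -0.35, a difference of 1.08. The range ran from -3.22 to 2.87. Of the 48 genes, 31 had at least 1 enriched window, 12 had at least 1 lower window, 5 had both and 10 had no call. Of 24207 other genes, untested ones included, 4485 had at least 1 enriched window. Genes with more windows have more chances of a call, and the other gene counts were not made over all genes. These gene counts are therefore not to be read as a difference from other genes. The level was similar in the sets: 120 members were above 0 in both and 27 were below in both. Over all 36440 tested windows, 11160 were above and 17847 below in both. The values of set 1 and set 2 correlated across the 174 windows (Pearson r = 0.78, Spearman rho = 0.70), windows of a gene not being independent. Over all windows the correlation was 0.76 (Pearson) and 0.77 (Spearman), so this agreement was not particular to the members. The place of 0 depends on the scaling. With the constants that the deposited values carry, 1 per library, used in place of trimmed means, the median window moved to -1.30 and the median member to -0.24, and 6 members were enriched and 29 lower, but the members still lay 1.06 above the median window and 149 of 174 (85.6%) were above it under either scaling.

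The plot of windows by family shows how unevenly the mark was spread. In 14 of 15 families the median exceeded that of all windows, under trimmed means, median-of-ratios factors and the deposited constants alike. The exception was the group of DSCAML1 and IGSF9B (median -2.09). With the deposited constants only the contactin-associated proteins and LRRTM4 kept a median above 0.

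**Figure D1:**
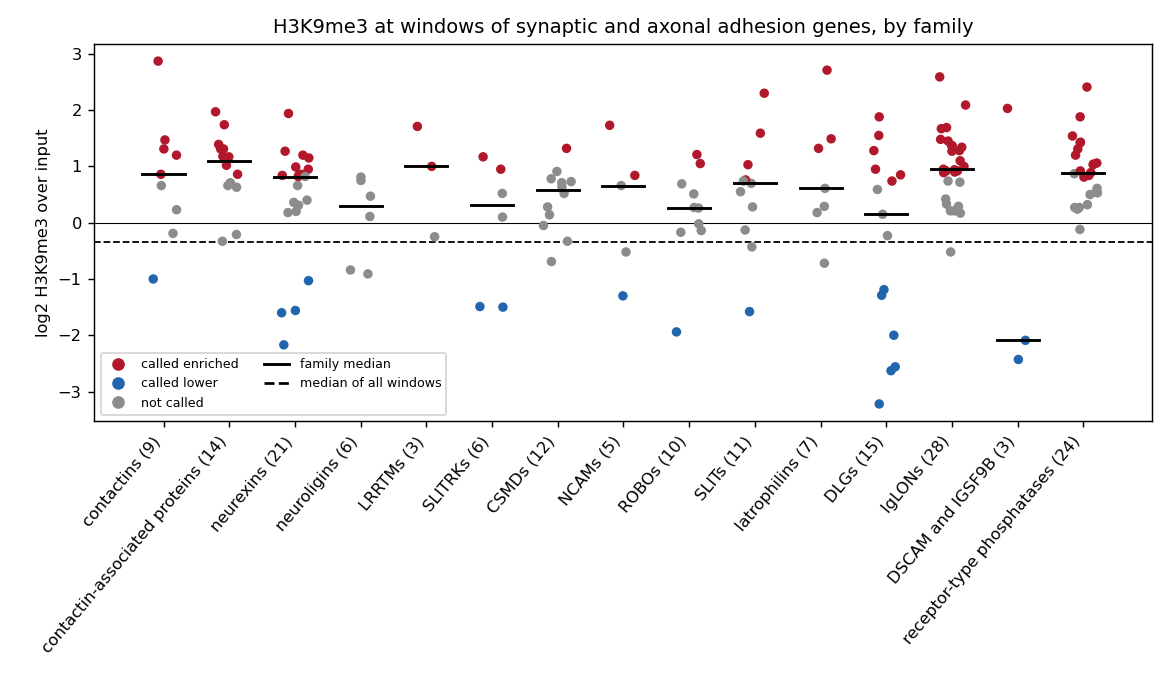
Log2 H3K9me3 over input (vertical axis) for each of the 174 tested windows, by gene family with the number of windows in brackets. Red points were called enriched, blue lower and grey not called; black bars are family medians, highest among families for the contactin-associated proteins at 1.09, and the dashed line is the median of all windows at -0.35, both on the trimmed-mean scale, which puts 14 of 15 medians above 0 where the deposited constants put 2.

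Among presynaptic receptors, the neurexin NRXN3 had 5 of 12 windows enriched and 1 lower, and NRXN2 had all 3 lower. The lowest NRXN2 window (chromosome 11, 64490560 to 64492660, minus strand) held 1 H3K9me3 against 4 input reads and 9 against 70 in non-migrated cells, and 0 against 21 and 5 against 58 in migrated cells, a log2 of -2.17 ± 0.46 (limma adjusted p = 0.0002). Every input library was deeper than its H3K9me3 library, so raw reads alone do not show a low level. After scaling, the log2 ratio was -0.45 in set 1 and -2.42 in set 2 of non-migrated cells. In migrated cells it was -2.70 and -2.65. 

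Latrophilins, adhesion receptors that bind teneurins and FLRT proteins, had 3 of 7 windows enriched and 0 lower (median 0.61). An internal window of LPHN2 (chromosome 1, 81968784 to 81970884, plus strand) reached 2.71 ± 0.45 (6.56-fold, limma adjusted p = 8.71e-06). In set 2 it held 57 H3K9me3 against 30 input reads in non-migrated cells, and 67 against 18 in migrated cells. In set 1 it held 4 against 0 and 5 against 5, so the set 1 value of the non-migrated cells rests on an input without reads; set 2 alone gave 1.39 and 2.63. The most upstream window of LPHN3 was enriched too (1.49), while that of LPHN2 (0.18) and the single window of LPHN1 (-0.72) were not called.

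The receptor-type phosphatases had 14 of 24 windows enriched and 0 lower (median 0.88). PTPRN2, a phosphatase-like protein of secretory vesicles, contributed 7 of its 9 windows, PTPRD, a presynaptic receptor of SLITRK proteins, 6 of 9, and PTPRT, a homophilic adhesion receptor, 1 of 6. A plus-strand PTPRN2 window (chromosome 7, 157645221 to 157647321) held 13 H3K9me3 against 4 input reads and 166 against 80 in non-migrated cells, and 15 against 12 and 225 against 69 in migrated cells. ChIP exceeded input in all 4 pairs, and the log2 was 2.41 ± 0.30 (5.31-fold, limma adjusted p = 1.91e-07). A second PTPRN2 window (157404715 to 157406815, plus strand) held 216 against 94 and 269 against 92 reads in set 2 and reached 1.88 ± 0.30 (limma adjusted p = 5.19e-06). At the most upstream same-strand start PTPRD was enriched (1.20 ± 0.39) and PTPRT was not called (-0.12 ± 0.31).

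Among the immunoglobulin adhesion molecules of axons, the contactins had 5 of 9 windows enriched and 1 lower. The start windows of CNTN1 (1.31), CNTN3 (1.20), CNTN4 and CNTN6 (1.47) were enriched. CNTN2, the axonal glycoprotein TAG, had the lower window, an internal one at -1.0 ± 0.40. The start window of CNTN4, whose sequence is printed above (chromosome 3, 2138497 to 2140597, plus strand), had the highest fitted mean of the members, at 2.87 ± 0.41 (7.33-fold, limma adjusted p = 1.07e-06). It held 7 H3K9me3 against 0 input reads and 59 against 23 in non-migrated cells, and 8 against 7 and 82 against 35 in migrated cells. Set 2 alone gave 1.82 and 1.98; the set 1 value of 5.04 in non-migrated cells stands on the input without reads. The rank and the fold rest on that library: fitted on set 2 alone, CNTN4 was at 2.15, below SLIT2 at 2.74, NEGR1 at 2.65, IGSF9B at 2.32 and the windows of PTPRN2 and LPHN2 named here (2.24 and 2.22).

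Contactin-associated proteins, neurexin-like partners of contactins, had 9 of 14 tested windows enriched and 0 lower. Of these, 7 belonged to CNTNAP2, a gene with 10 windows over 2273 kb. Its start (chromosome 7, 145811453 to 145813553, plus strand) held 16 H3K9me3 against 8 input reads and 107 against 51 in non-migrated cells, and 10 against 15 and 127 against 53 in migrated cells (1.97 ± 0.28, 3.91-fold, limma adjusted p = 1.39e-06). CNTNAP4 differed along its length: the start window lay at -0.33 and an opposite-strand window 194 kb further on at 1.18.

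The IgLON genes, which encode small anchored immunoglobulin proteins, had 19 of 28 windows enriched and 0 lower (median 0.95). All 6 windows of OPCML, a gene known for its silencing in carcinomas, were enriched, at 0.89 to 1.67. NTM had 6 of 8, LSAMP 6 of 11 and NEGR1 1 of 3. The highest was an internal NTM window (chromosome 11, 132152196 to 132154296, plus strand; 2.59 ± 0.37, limma adjusted p = 1.32e-06), with 22 H3K9me3 against 1 input read and 68 against 26 in non-migrated cells, and 5 against 10 and 68 against 38 in migrated cells. Its set 1 value in non-migrated cells (5.04) again stands on a nearly empty input, and set 2 gave 1.85 and 1.59. The NEGR1 window on the minus strand (chromosome 1, 72748317 to 72750417) held 51 against 16 and 79 against 22 reads in set 2 and reached 2.09 ± 0.32 (limma adjusted p = 3.37e-06).

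Of the NCAM genes, NCAM1 had an enriched window (0.84) and a lower window (-1.30), and NCAM2 had 1 enriched window of 3, on the opposite strand (1.73). IGSF9B, a homophilic adhesion molecule of inhibitory synapses, was high in its single window (chromosome 11, 133826780 to 133828880, minus strand; 111 against 40 and 113 against 41 reads in set 2; 2.03 ± 0.33, limma adjusted p = 6.45e-06). DSCAML1 was low. Its minus-strand window (chromosome 11, 117688140 to 117692134) held 4 H3K9me3 against 17 input reads and 14 against 124 in non-migrated cells, and 0 against 27 and 6 against 96 in migrated cells (-2.43 ± 0.39, limma adjusted p = 5.03e-06). The plus-strand DSCAML1 window overlaps it and shares reads with it (-2.09 ± 0.44, limma adjusted p = 0.000203), so that these are not separate observations.

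**Figure D2:**
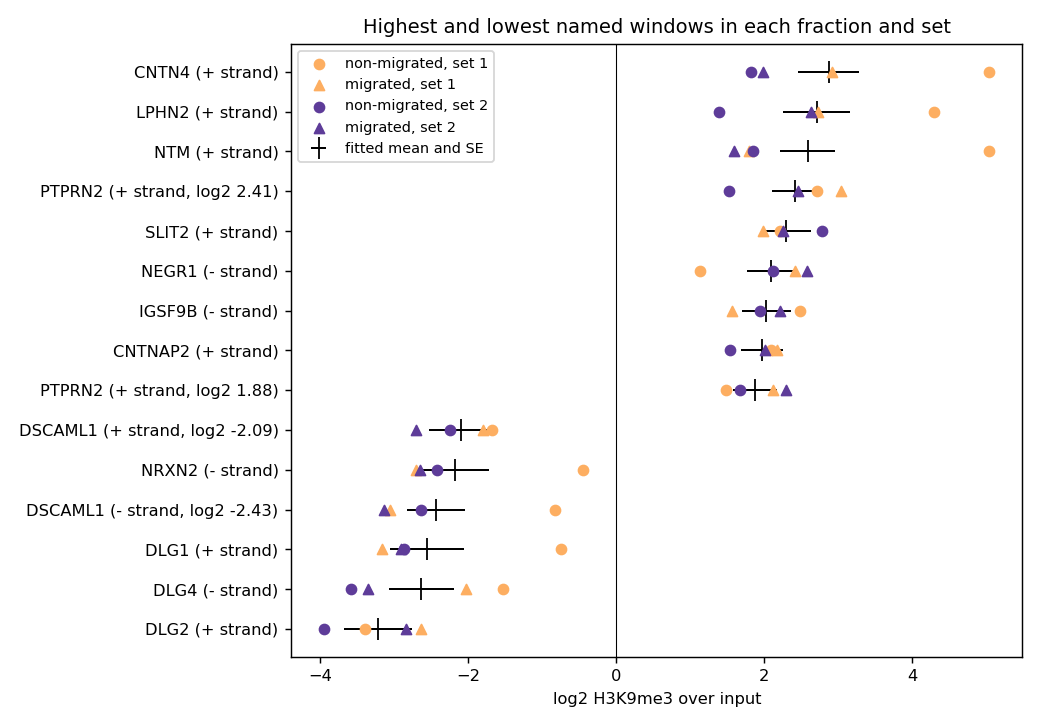
Log2 H3K9me3 over input (horizontal axis) of 9 of the highest and the 6 lowest named windows in each fraction (circles, non-migrated; triangles, migrated) and set (orange, set 1; purple, set 2), with the fitted mean and its SE in black. The points of the 9 high windows are all above 0 and those of the 6 lowest all below 0; the 3 orange circles farthest to the right, for CNTN4, LPHN2 and NTM, stand on 0 or 1 input reads.

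Among postsynaptic ligands the calls varied by family, and differences between families were not tested. Neuroligins, the classical partners of neurexins, had 0 of 6 windows called in either direction (median 0.29), although 2 of 6 were called lower with median-of-ratios factors and with the deposited constants: the start windows were at 0.47 for NLGN1, -0.91 for NLGN2 and 0.11 for NLGN3. LRRTM4, another neurexin ligand, had 2 of 3 windows enriched, the higher at 1.71 ± 0.42. The SLITRK genes had 2 windows enriched and 2 lower of 6. At SLITRK2 these calls lay 10 kb apart on the same strand, with 1.17 ± 0.36 at the upstream and -1.49 ± 0.49 at the downstream window. The downstream window held 61 reads in all, the fewest of any tested member. Its H3K9me3 reads were 1 and 3 in non-migrated and 0 and 4 in migrated cells. The upstream window was at -0.73 in migrated cells of set 1, on 1 H3K9me3 against 16 input reads. The CSMD genes, which encode large complement-type membrane proteins, had 1 of 12 windows enriched (CSMD3, 1.32 ± 0.39) and 0 lower, although their median of 0.58 was 0.93 above that of all windows.

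In the guidance pathway, the ligands had 4 of 11 windows enriched and 1 lower, and the receptors 2 of 10 enriched and 1 lower. The start of SLIT2, whose sequence is printed above (chromosome 4, 20252883 to 20254983, plus strand), held 9 H3K9me3 against 4 input reads and 135 against 27 in non-migrated cells, and 7 against 12 and 117 against 41 in migrated cells. Its log2 was 2.30 ± 0.33 (4.93-fold, limma adjusted p = 1.36e-06), and its fraction values in the sets ran from 1.99 to 2.78. The other SLIT2 windows were not called (-0.13 and 0.70). SLIT3 had 3 enriched windows and 1 lower of 8. Of the receptors, ROBO2 had 2 of 4 windows enriched, ROBO1 and ROBO3 had none called, and the start of ROBO4, the endothelial member, was lower (-1.94 ± 0.43, limma adjusted p = 0.000331).

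The DLG scaffolds, which also serve the junctions of epithelial cells, were the most divided family, with 6 windows enriched and 6 lower of 15. Both windows of DLG1 and both of DLG4 were lower. The DLG4 start (chromosome 17, 7123269 to 7125369, minus strand), whose sequence is printed above, held 1 H3K9me3 against 9 input reads and 5 against 91 in non-migrated cells, and 0 against 13 and 4 against 77 in migrated cells (-2.63 ± 0.44, limma adjusted p = 1.18e-05). The opposite-strand window of DLG1 (chromosome 3, 197023123 to 197025223) held 4 against 45 and 2 against 31 reads in set 2 (-2.56 ± 0.50, limma adjusted p = 6.87e-05). DLG3, on the X chromosome, had 2 of 3 windows enriched at 0.74 and 0.95. Windows of other genes on that chromosome were high as well, with 34.2% enriched and a median of 0.45.

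DLG2 joined both extremes in a single gene. Its most upstream start (-2.0 ± 0.45) and the overlapping opposite-strand window (chromosome 11, 85337629 to 85339729, plus strand; 0 against 11 and 2 against 53 reads in non-migrated, 0 against 20 and 3 against 42 in migrated cells; -3.22 ± 0.46, limma adjusted p = 1.06e-06) were lower, the latter being the lowest of all members. Within the gene, 4 windows were enriched. The highest of these, an opposite-strand window (85193012 to 85195112), held 70 H3K9me3 against 37 input reads and 421 against 201 in non-migrated cells, and 42 against 88 and 565 against 195 in migrated cells (1.88 ± 0.15, limma adjusted p = 3.71e-11). Its 1619 reads compare with a member median of 174.5, and its input reads, the most of any member at 521, with a median of 94.

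The members nearest to the threshold on the enriched side were windows of SLIT3 (chromosome 5, 168216503 to 168218603) and DLG2 (chromosome 11, 84645733 to 84647833), both at a limma adjusted p of 0.0481 (0.76 and 0.85). The nearest outside it were windows of NLGN1 (0.75, adjusted p = 0.056) and SLIT3 (0.74, adjusted p = 0.0628). These 4 values differ by less than their SE of 0.32 to 0.36.

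Since a gene may have several windows, the outermost pair of each gene was compared within the same libraries. The pair differed in 12 of 35 member genes (34.3%), where 32.9% of 6058 genes with such a pair did, so the share is near the background. In LSAMP the most upstream window exceeded the farthest one, 2161 kb away on the opposite strand, by log2 2.21 ± 0.48 (limma adjusted p = 0.000396). In SLIT3 the start exceeded the opposite-strand window 596 kb away by 2.31 ± 0.53 (limma adjusted p = 0.000679). In SLITRK2 the start exceeded the downstream window, which held 61 reads over 8 libraries, by 2.52 on the log2 scale. In CNTN4 the start exceeded a window 47 kb away by 2.2. The set 1 input of non-migrated cells held 0 reads at that start. The CNTN4 difference, -2.2 as the downstream minus the start window, was -0.90 in set 2 alone, and -1.58 and no longer called without non-migrated input of set 1 (limma adjusted p = 0.0885) or without migrated input of set 2 (limma adjusted p = 0.0768). CNTNAP4 (1.51 ± 0.39) and NCAM1 (2.07 ± 0.55) had the higher value in the window at the larger coordinate; the CNTNAP4 difference was not called without precision weights (1.46, limma adjusted p = 0.0588). The remaining genes called were NTM, ROBO4, NEGR1, SLIT2, DLG2 and NCAM2. Start windows were thus the higher of the pair in some genes and the lower in others.

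**Figure D3:**
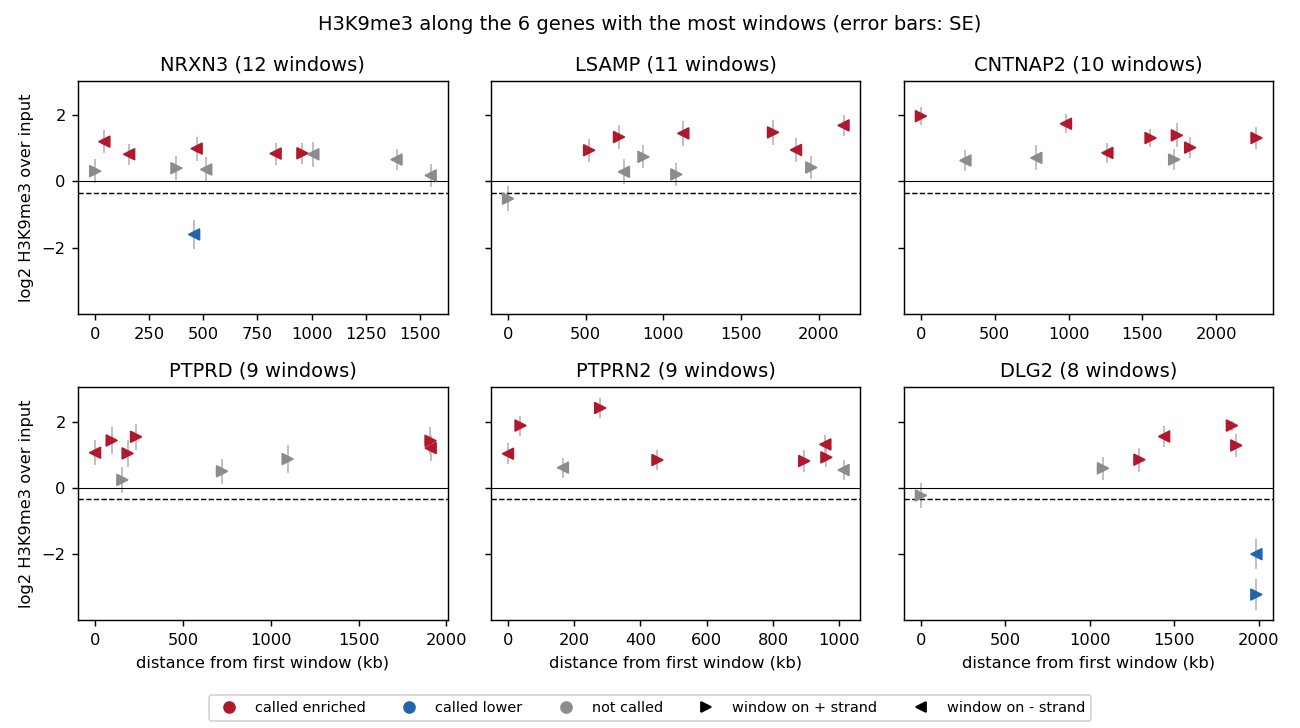
Log2 H3K9me3 over input (vertical axis, error bars SE) against distance in kb from the window at the lowest coordinate, for the 6 genes with the most tested windows. Arrowheads give the strand of the window and colours the call, and the dashed line is the median of all windows; enriched windows recur over the length of LSAMP, CNTNAP2, PTPRD and PTPRN2, while DLG2 has its 2 lower windows at one end.

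Strand and position were set for the 38 member genes matched to a RefSeq start. Enrichment was not confined to internal or antisense windows. Of 36 most upstream windows on the gene's strand, 14 (38.9%) were enriched and 5 lower (DLG1, DLG2, DLG4, ROBO4 and SLITRK6), where 11.7% and 46.5% of all such windows were. Of 34 other same-strand windows, 20 (58.8%) were enriched, against 15.2% of all such windows, and of 67 opposite-strand windows 28 (41.8%), against 11.4%. The 37 windows of the 11 unmatched genes (among them NEGR1, LRRTM4, PTPRN2, CSMD1, CSMD3, NRXN2, NCAM1, DSCAML1, IGSF9B and LPHN1) had 18 enriched (48.6%) and 6 lower (16.2%). Of all windows of unmatched genes, 20.4% were enriched and 25.5% lower.

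**Figure D4:**
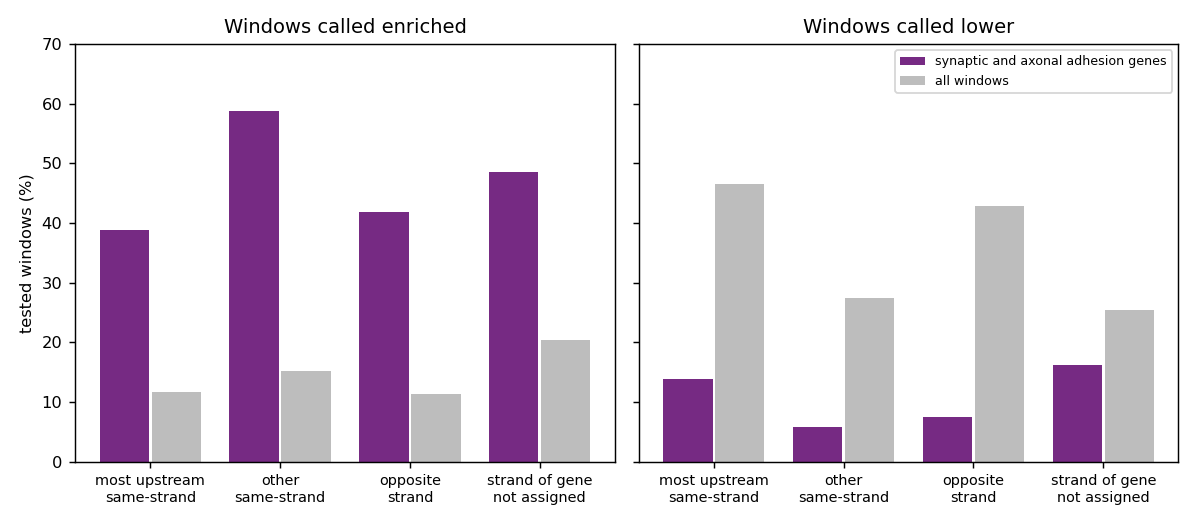
Percentage of tested windows (vertical axis) called enriched (left) and lower (right) among members (purple) and among all windows (grey), by position on the gene. Members show a larger enriched share at each position, 38.9% against 11.7% at the most upstream same-strand start, and a smaller lower share.

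Number of windows and surroundings were compared as descriptions. Members in genes with 4 or more windows were enriched in 61 of 110 cases (55.5%), where windows of other genes with as many were enriched in 16.9%. Windows of other genes within 500 kb of a member were enriched in 105 of 481 cases (21.8%) and lower in 177 (36.8%), with a median of -0.23, which lies between the members and nearer to all windows. For 48 members no window outside the member genes lay within that distance. Input reads per member window (median 94) were close to those of all windows (median 109).

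CG content was counted in the 300 bases around the most upstream RefSeq start of 36 member genes. They held a median of 12 CG, against 22 over 12055 genes. Over all genes, enriched starts held a median of 16 and lower starts 27 (Spearman rho of CG count with log2 -0.30 across genes). Among the members enriched starts held 14, starts not called 11 and lower starts 11 (rho 0.14 across 36 genes). The matched member starts with the most H3K9me3, CNTN4 and SLIT2, were among those rich in CG (46 and 36), as their printed sequences show. The next in H3K9me3, CNTNAP2, LSAMP, LPHN3 and CNTN6, held 16, 8, 30 and 6. Of the 5 lower starts, DLG4 held 27, DLG2 22, ROBO4 11, DLG1 10 and SLITRK6 4. The printed sequences therefore do not stand for either end of the range. At least 1 CG was found in 98.1% of all such stretches, on either strand alike.

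Other genes of the same processes were counted in the same way, where 15.8% of all windows were enriched and 35.2% lower (median -0.35). The windows named were picked from those with the smallest p in their list. Of 85 windows of other synaptic organisers, 19 (22.4%) were enriched and 9 (10.6%) lower (median 0.35). MDGA2, which binds neuroligins, was the highest named (2.53 ± 0.33, limma adjusted p = 4.1e-07), and a window of the teneurin gene ODZ2 the lowest (-3.22 ± 0.48). The L1 family had 0 of 8 enriched and 1 lower, an opposite-strand window of L1CAM (-2.70 ± 0.43). Of 63 windows of netrin, semaphorin and ephrin genes, 11 (17.5%) were enriched and 23 (36.5%) lower (median -0.39), near the shares of all windows. The lowest named were the starts of EFNA1 at -3.69 ± 0.44 and PLXNA2 at -3.00 ± 0.48. Of 52 windows of postsynaptic scaffolds other than the DLG proteins, 10 (19.2%) were enriched and 20 (38.5%) lower (median -0.56), again near all windows. The lowest named was the start of HOMER3 at -3.40 ± 0.48. Signalling partners of SLIT and ROBO had 2 of 17 (11.8%) enriched and 10 (58.8%) lower (median -1.44). The start of SRGAP1, a GTPase-activating protein that binds ROBO1, was at -2.45 ± 0.45.

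The study's question was whether H3K9me3 differs between migrated and non-migrated cells. In non-migrated cells 35 members (20.1%) were enriched, against 8.41% of all windows, and 12 were lower, against 23.6%. In migrated cells 70 (40.2%) were enriched, against 12.9%, and 12 were lower, against 28.3%. In all, 32 members were enriched and 9 lower in both fractions. Calls shared by the fractions were not counted over all windows, so these counts have no background to be read against. The medians were 0.51 in non-migrated and 0.94 in migrated cells, and the median SE of a window was 0.46 and 0.45. Without the set as a block the counts were 24 enriched and 7 lower in non-migrated and 52 and 12 in migrated cells. Counts in each fraction do not test the difference between them.

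No member passed the test of a change between the fractions. The input-corrected change was called in 0 of 36440 windows, members included (limma, adjusted p of 0.05; 0 also without precision weights). At an unadjusted p under 0.05, 7 members were higher in migrated cells (4.02%, against 1.67% of all windows) and 1 was lower (0.575%, against 1.85%). The median change of members was 0.26 (0.29 in set 1 and 0.20 in set 2), that of all windows -0.01, and the median SE of a single member's change was 0.58. With the deposited constants the members' own median became -0.66, and its offset from all windows was 0.28, where the trimmed-mean scale gave 0.27. The size of this offset varied with single libraries of set 2. It was 0.14 without the non-migrated or the migrated H3K9me3 library of that set, and 0.45 without either of its input libraries. Leaving out a library of set 1 gave 0.20 to 0.32. The members called enriched had a median change of 0.33, other enriched windows one of 0.25, and 40.0% of the former and 37.4% of the latter were positive in both sets. Across members the changes in the 2 sets did not correlate (r = -0.04), as the plot of fractions shows.

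Among windows with a mean of at least 20 reads per library, those with the smallest p that moved the same way in both sets were, on the higher side, CNTNAP2 (chromosome 7, 147075113 to 147077213, minus strand; 1.42 ± 0.56), the start of OPCML (chromosome 11, 133402314 to 133404414, minus strand; 1.26 ± 0.51) and the PTPRN2 window at 157645221 (0.85 ± 0.36), with unadjusted limma p of 0.0154, 0.0176 and 0.0249. At CNTNAP2 the ratios moved from 0.84 to 0.91 in set 1 and from -0.08 to 1.70 in set 2, so the value rests on set 2, and without either H3K9me3 library of set 2 it was -0.01. At OPCML they moved from -0.32 to 2.18 and from 0.50 to 1.39. On the lower side stood the DSCAML1 minus-strand window (-1.04 ± 0.71), the internal NTM window (-0.75 ± 0.57) and the start of CNTN5 (-0.76 ± 0.58), with unadjusted p of 0.152, 0.195 and 0.199. The member counted above as lower without adjustment lay below that mean of reads and was named after its value was seen. It was an opposite-strand window of DLG2 (chromosome 11, 83352645 to 83354745, plus strand) at -1.57 ± 0.67, with an unadjusted limma p of 0.025. It held 6 H3K9me3 against 6 input reads and 27 against 29 in non-migrated cells, and 1 against 27 and 14 against 43 in migrated cells, and its ratio was lower in migrated cells in both sets. The widest change, 2.19 ± 0.83 at an opposite-strand window of NRXN3 (chromosome 14, 79164365 to 79166465), rested on 1 and 3 H3K9me3 reads in non-migrated and 2 and 11 in migrated cells; it was named after its value was seen.

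**Figure D5:**
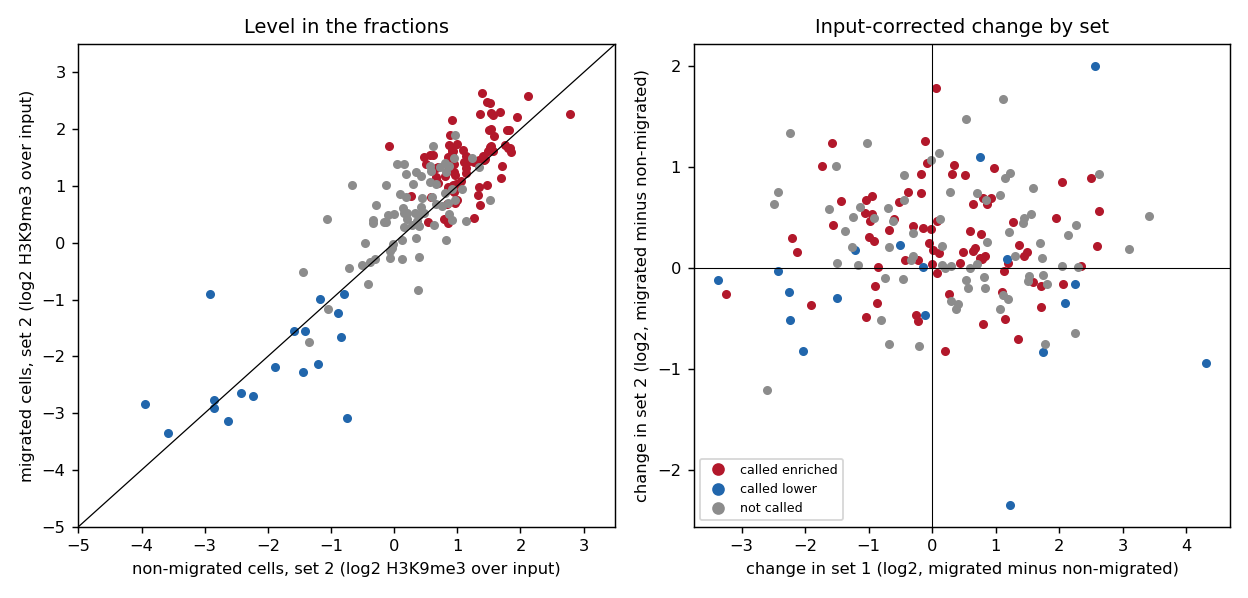
Left, log2 H3K9me3 over input of the 174 tested member windows in non-migrated (horizontal) and migrated cells (vertical) of set 2, with the line of equality; right, the input-corrected change (log2, migrated minus non-migrated) in set 1 against set 2. Colours give the call on the mean of fractions; levels in the fractions run along the line (r = 0.88), and changes in the 2 sets scatter without relation (r = -0.04).

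Summed over their windows, the members took 0.469% of input and 0.723% of H3K9me3 reads in non-migrated cells of set 1 (Wilson 95% interval 0.448 to 0.491 for input and 0.684 to 0.766 for H3K9me3), and 0.430% and 0.853% in migrated cells (0.414 to 0.445 and 0.794 to 0.916). In set 2 the shares were 0.384% and 0.675% in non-migrated cells (0.375 to 0.394 and 0.660 to 0.690) and 0.394% and 0.804% in migrated cells (0.385 to 0.404 and 0.787 to 0.822). These intervals cover counting error only. The H3K9me3 share over the input share of set 1 was 1.54 in non-migrated cells and 1.99 in migrated ones, and that of set 2 was 1.76 and 2.04, that is 1.29-fold and 1.16-fold higher in migrated cells. For members called enriched the ratio of fractions was 1.26 and 1.18, and for all other enriched windows it was 1.12 and 1.14. With 2 sets an exact permutation test of this ratio could not reach a p of 0.05, and none was made.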

How the data were processed

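H3K9me3 ChIP and input libraries of migrated and non-migrated SiHa cells were used, in 2 sets. The authors deposited log2 values for promoter windows of hg19, per the file headers. FastQC 0.11.5, SAMtools 1.3 and Bowtie2 2.2.9 are credited to the submitters' processing notes, and the counting program and strand setting are not given in the sources used here. Per the labels' protocols the sets differ in library kit, and duplicate reads were removed from set 1. For the migrated H3K9me3 library of set 1 the title and description give different replicate numbers; the title was followed. The deposited log2 values were whole reads times 1 constant per library (100% whole within 0.01; 0 reads entered as 0.9), and these reads were recovered. Library depth was 88028 to 1729061 promoter reads. limma 3.58.1 (R 4.3.3) was run on log2 of reads plus 0.5 with precision weights and library sizes scaled by trimmed means (30% of ratios, 5% of levels). Windows needed the level of 10 reads in a library of median size in 2 libraries and 15 reads in all. The model held set, antibody, their product, fraction, and fraction by antibody (2 residual and 33.15 prior degrees of freedom); each contrast was fitted as a coefficient, so that its SE is exact under the weights. The sets are paired by the series' design. Same-numbered libraries deviated together (r = 0.147 for H3K9me3, 0.469 for input), but the sets differ in kit and duplicate removal, so these correlations do not test the pairing. The fits were tested on simulated data. Promoter sequences and gene strands are RefSeq's (GRCh38.p14), matched by symbol for 38 of 49 genes, and no coordinates were converted.

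Members and lists were chosen with earlier results of these data known. Windows described in full were the 10 highest called enriched (at least 10 H3K9me3 reads in each fraction of set 2), the 6 lowest called lower (at least 10 input reads there), the 3 with the smallest p for change in each direction (same sign in both sets, mean of at least 20 reads), up to 6 genes in the comparison of outermost windows, those next to the threshold, the window of a family with the most reads, and up to 3 per other list. Other windows are given by value only. A member gene that is part of the counts is not reported here by itself. Alternatives were 2 other scalings, no filter, no weights, an offset of 2 reads, no set block, set 2 alone, leaving out each library, and the pair of windows with the most reads; members without overlap and 1 window per gene were added after the data were seen. The 2 sets are of 1 cell line. The product of set and antibody takes differences between the sets in H3K9me3 over input out of the residual spread. The SE and p-values of a level, or of a difference between outermost windows, therefore do not measure how far the sets differ in it.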

Additional observations from a re-analysis of the deposited data

How the results depend on the processing

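With the replicate block left out, 77 members were enriched and 18 lower on the mean of fractions, and in non-migrated cells 7 were lower in place of 12; the block changed no other count of calls by more than 1.5 times. The constants of the deposited values as scaling gave 6 enriched and 29 lower on the mean, 4 enriched in non-migrated cells, and 0 enriched and 28 lower in migrated cells. Of all windows they called 0.933% enriched and 54.0% lower on the mean, in place of 15.8% and 35.2%. They also put 4 of the named levels on the other side of 0: the SLIT3 windows at 168216503 (-0.18) and 168728033 (-0.19), DLG2 at 84645733 (-0.10) and NLGN1 at 173773431 (-0.19), as well as the change of PTPRN2 (-0.07). Set 2 alone gave 122 enriched members and 20 genes whose outermost windows differed, in place of 80 and 12; it leaves no spread for the fractions, which were not fitted. With an offset of 2 reads 56 members were enriched in non-migrated cells. Without a filter, and without precision weights, 7 were lower there, and without weights 45 were enriched in migrated cells. With 1 window per gene, the one with the most reads, 29 were enriched and 5 lower of 48 genes, and the ratio of shares was 1.24 in set 1 and 1.26 in set 2; this pick counts H3K9me3 reads as well as input reads, so it favours windows high in the mark and its share is not to be read against that of all windows. Beside the smaller number of windows and that pick, the cause of these shifts was not tested. That pick aside, wherever a member count moved by more than 1.5 times, the count over all windows or genes moved the same way. This holds for the left-out libraries below too. The median member lay 0.86 to 1.17 above the median window under the other scalings, filter, weights, offset, block, set 2 alone and left-out libraries, where the main fit gave 1.08.

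Leaving out each library in turn gave 37 to 107 enriched and 9 to 17 lower members on the mean. The low values came without migrated input of set 1 (37), without non-migrated input of set 2 (38) and, for lower members, without migrated input of set 2 (9). In non-migrated cells the ranges were 5 to 76 enriched and 3 to 14 lower: 5 and 3 without non-migrated input of set 2, 20 enriched without non-migrated input of set 1, 76 without migrated H3K9me3 of set 1, and 4 to 7 lower without H3K9me3 of non-migrated cells of either set or migrated input of either set. In migrated cells they were 18 to 88 enriched and 3 to 13 lower: 29 and 5 without migrated input of set 1, 18 and 3 without that of set 2, and 29 and 3 without migrated H3K9me3 of set 2. Outermost windows differed in 6 to 16 genes, with 6 without non-migrated input of set 1. The change was called in 0 members each time. Over the left-out libraries the change of CNTNAP2 at 147075113 ran from -0.01 to 1.88 and that of CNTN5 from -1.14 to 0.10, with -0.01 and 0.10 reached without the non-migrated or the migrated H3K9me3 library of set 2.

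For the windows and genes described in full, 430 of the values under an alternative kept direction and call, 23 lost and 12 gained the call, and 9 changed sign. Among the highest and lowest windows described, NEGR1, IGSF9B, the CNTNAP2 start and PTPRN2 at 157404715 lost the call, each with the deposited constants. The pair of windows with the most reads differed in 9 genes. The H3K9me3 libraries of set 1 held few reads in member windows, and the median SE of a member's change was 0.58; the part of depth in that SE was not tested.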
